A study of Mus musculus with 17 samples.

Results

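The granzyme family of mouse lung is described here over 9 genes, Gzma, Gzmb, Gzmc, Gzmd, Gzme, Gzmf, Gzmg, Gzmk and Gzmm, of the 54146 genes in the deposited tables. The members were chosen by gene symbol in the authors' table and joined to the counts by Ensembl gene ID, with their levels by genotype and day already in view, so those levels are a description and carry no test. All 9 were found. The 4 genes Gzmd to Gzmg are set against the other 5, called classical here.

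RNA of mouse lung was sequenced in 17 libraries of 4 groups: 5 libraries of Clic4 KO mice at day 14, 6 of WT mice at day 14, 2 of Clic4 KO mice at day 0 and 4 of WT mice at day 0. Clic4 codes for a chloride intracellular channel protein. All libraries carry the strain label FVB/6DT1; FVB is an inbred strain, and 6DT1 is known as a line of mammary tumour cells from that strain. The age label is 8 weeks for day 14 and 6 weeks for day 0, so day and age go together and cannot be told apart. The labels give neither what was done between the days nor the kind of KO allele, and the group sizes in the series' design text differ from those of the sample labels, on which the grouping here rests. Libraries are named below by group and a number in accession order that pairs nothing; the labels do not say that each came from a separate animal, so p-values reflect only how far these libraries spread, which may be technical.

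Granzymes are serine proteases stored in the granules of natural killer (NK) cells and cytotoxic T cells and delivered into a target cell through the pore protein perforin. Granzyme A, a tryptase, and granzyme B, which cuts after aspartate and starts cell death, are the best studied members. Granzyme K is a second tryptase, and granzyme M cuts after methionine or leucine and is best known from NK cells. Granzymes C to G are known from mice and other rodents, where Gzmc is induced in activated cytotoxic T cells and Gzmd to Gzmg are known from strongly activated killer cells and from the NK cells of the pregnant uterus. In whole lung, fewer cells of a type and less RNA per cell cannot be told apart.

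Library totals ran from 20607811 to 35743830 counts. Clic4 itself stood at 301.3 to 398.9 CPM (counts scaled to library size) in KO lungs at day 14, against 926.6 to 1281 CPM in WT lungs of that day. At day 0 it stood at 324.2 to 327.3 CPM in KO lungs and 924.2 to 952.7 CPM in WT lungs, so the genotypes did not overlap. The lung markers were high in every library, with surfactant protein C (Sftpc) at 10230 to 14240 CPM.

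Gzmb to Gzmg lie in 1 cluster on chromosome 14 of GRCm38 (the mm10 assembly), chr14:56117626-56262260, a span of 144.6 kb in which every granzyme is on the minus strand. Read in the direction of transcription the order is Gzmb, Gzmc, Gzmf, Gzmn, Gzmg, Gzmd and Gzme. Gzmn, the member of the cluster that is not among the 9, had 0 counts in all 17 libraries. Gzma (chr13:113093825-113100981) and Gzmk (chr13:113171608-113225908) are on the minus strand of chromosome 13, and Gzmm (chr10:79689020-79695261) is on the plus strand of chromosome 10. Each of the 9 is protein-coding with 5 exons in its main transcript.

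**Figure D1:**
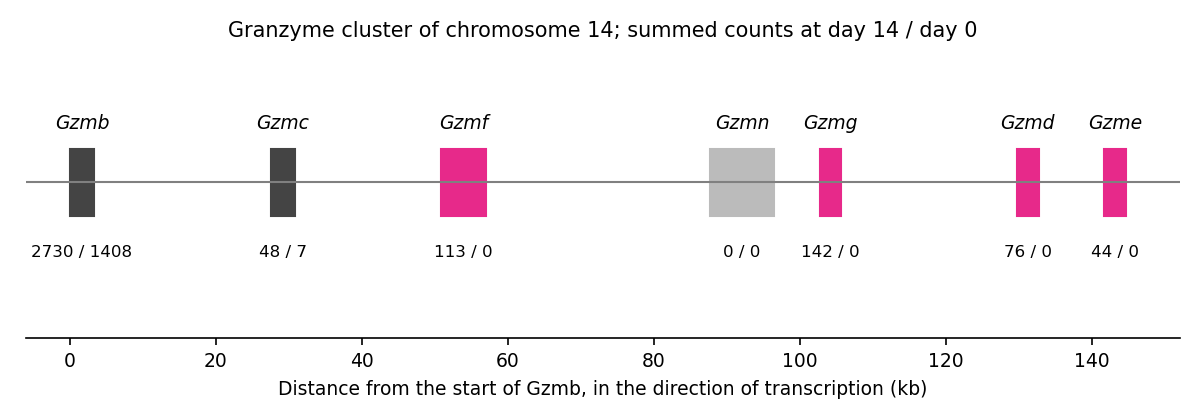
The granzyme cluster of chromosome 14 drawn to scale, with the distance in kb from the start of Gzmb in the direction of transcription on the x axis and, under each gene, its counts summed over the 11 day 14 libraries and the 6 day 0 libraries. The pink genes, Gzmf, Gzmg, Gzmd and Gzme, had 113, 142, 76 and 44 counts at day 14 and 0 at day 0, while Gzmb had 2730 and 1408, Gzmc 48 and 7, and Gzmn (grey) none.

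The 250 bases before the start of 6 of the cluster's genes are shown because the members that had counts at day 14 and none at day 0 can be compared in them with their neighbours. They are RefSeq sequences of GRCm38.p6, minus strand, each written 5′ to 3′ and ending at the base before the RefSeq start: chr14:56120626-56120875 for Gzme, chr14:56132594-56132843 for Gzmd, chr14:56159580-56159829 for Gzmg, chr14:56211408-56211657 for Gzmf, chr14:56234658-56234907 for Gzmc and chr14:56262335-56262584 for Gzmb, whose RefSeq start lies upstream of the GENCODE start. Capitals mark ACCACA, a core word bound by Runx factors, on either strand (TGTGGT on the other).
Gzme: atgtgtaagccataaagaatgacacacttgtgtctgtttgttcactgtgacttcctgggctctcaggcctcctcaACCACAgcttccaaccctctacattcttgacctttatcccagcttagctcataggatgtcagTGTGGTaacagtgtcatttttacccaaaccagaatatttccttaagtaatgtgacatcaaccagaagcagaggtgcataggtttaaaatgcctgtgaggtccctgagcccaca
Gzmd: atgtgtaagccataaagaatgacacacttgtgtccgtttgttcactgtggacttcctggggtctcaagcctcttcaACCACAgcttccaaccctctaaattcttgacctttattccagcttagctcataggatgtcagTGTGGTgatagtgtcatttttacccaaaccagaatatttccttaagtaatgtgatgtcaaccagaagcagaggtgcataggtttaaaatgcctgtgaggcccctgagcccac
Gzmg: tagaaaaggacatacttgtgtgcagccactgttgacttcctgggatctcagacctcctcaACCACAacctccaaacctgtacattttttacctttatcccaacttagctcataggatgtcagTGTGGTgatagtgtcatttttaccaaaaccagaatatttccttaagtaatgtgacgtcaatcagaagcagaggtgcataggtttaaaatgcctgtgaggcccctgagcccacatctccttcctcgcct
Gzmf: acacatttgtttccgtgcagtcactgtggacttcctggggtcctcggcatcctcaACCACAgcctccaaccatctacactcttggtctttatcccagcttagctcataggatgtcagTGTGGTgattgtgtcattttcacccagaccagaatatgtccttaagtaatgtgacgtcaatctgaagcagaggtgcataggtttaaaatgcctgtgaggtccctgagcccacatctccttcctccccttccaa
Gzmc: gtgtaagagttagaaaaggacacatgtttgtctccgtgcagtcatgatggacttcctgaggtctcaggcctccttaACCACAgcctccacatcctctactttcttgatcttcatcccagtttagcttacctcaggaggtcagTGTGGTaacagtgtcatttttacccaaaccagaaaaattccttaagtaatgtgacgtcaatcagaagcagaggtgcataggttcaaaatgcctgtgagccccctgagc
Gzmb: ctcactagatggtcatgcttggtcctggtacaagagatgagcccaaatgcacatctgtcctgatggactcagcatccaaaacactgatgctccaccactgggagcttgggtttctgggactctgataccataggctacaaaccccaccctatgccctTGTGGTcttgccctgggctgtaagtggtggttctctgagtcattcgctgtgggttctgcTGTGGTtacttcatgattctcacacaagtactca

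Gzmd and Gzme share 94.82% of alignment positions in this window, and the 6 pairs among Gzmd to Gzmg share 75.0 to 94.82%. Gaps count as positions that differ, here and below. Each window ends at its own gene's start, so windows that are offset against each other have lower values. Gzmc shares 71.48 to 81.78% with those 4. Against Gzmb, the 5 genes Gzmc to Gzmg share 47.32 to 52.23%, which is close to the 46.82 to 52.67% they share with the unlinked Gzma, Gzmk and Gzmm. The window of Gzmn, which had no counts, shares 48.82 to 52.4% with the same 5 genes, although its coding sequence is 71.47 to 83.33% identical to theirs. In coding sequence Gzmd to Gzmg are 83.75 to 93.54% identical to each other.

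The windows of Gzmd, Gzme, Gzmf and Gzmg each hold ACCACA followed by TGTGGT with 62 bases between the first bases of the words, and Gzmc holds the same pair at 66 bases. Across 32851 promoter windows of the same length, 14.05% hold the word on either strand and 1.272% hold it at least 2 times. The pair at 62 bases is in 6 windows, 0.01826% of all, and the other 2 belong to Cd82 and Gm10804. Gzmb also holds 2 copies, both as TGTGGT. The cyclic AMP response word TGACGTCA is in the windows of Gzmc, Gzmf and Gzmg and in 1.546% of all windows, and the AP-1 word TGANTCA is in Gzmb alone among the 9 members and in 6.749% of all windows. The spacing and the words were chosen after the sequences were seen.

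Per transcript length, the authors' FPKM (fragments scaled by transcript length and library size) put Gzma far above the rest. Over the 17 libraries Gzma averaged 37.94 ± 18.3 FPKM (SD), Gzmb 6.535 ± 4.086 FPKM and Gzmm 1.104 ± 0.1854 FPKM. The lowest Gzma level, 11.41 FPKM, lay within the range of Gzmb, whose highest was 15.48 FPKM, and Gzmm with a highest level of 1.51 FPKM stayed under the lowest Gzmb level, 2.53 FPKM. The others averaged between 0.1112 FPKM (Gzmk) and 0.4 FPKM (Gzmg), with SDs at least as large as their means. These SDs take in the day 0 libraries, where Gzmd to Gzmg were at 0, and do not compare genes within a library. No order among Gzmg, Gzmf, Gzmd, Gzmc, Gzme and Gzmk is therefore read from them, for or against. Gzma made up a median of 80.65% of the summed granzyme FPKM in KO lungs at day 14 and 81.02% in WT lungs at day 14, with 80.41% in KO lungs and 84.2% in WT lungs at day 0. Gzmd to Gzmg together made up 0.165 to 6.468% in KO lungs and 1.137 to 11.43% in WT lungs at day 14.

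**Figure D2:**
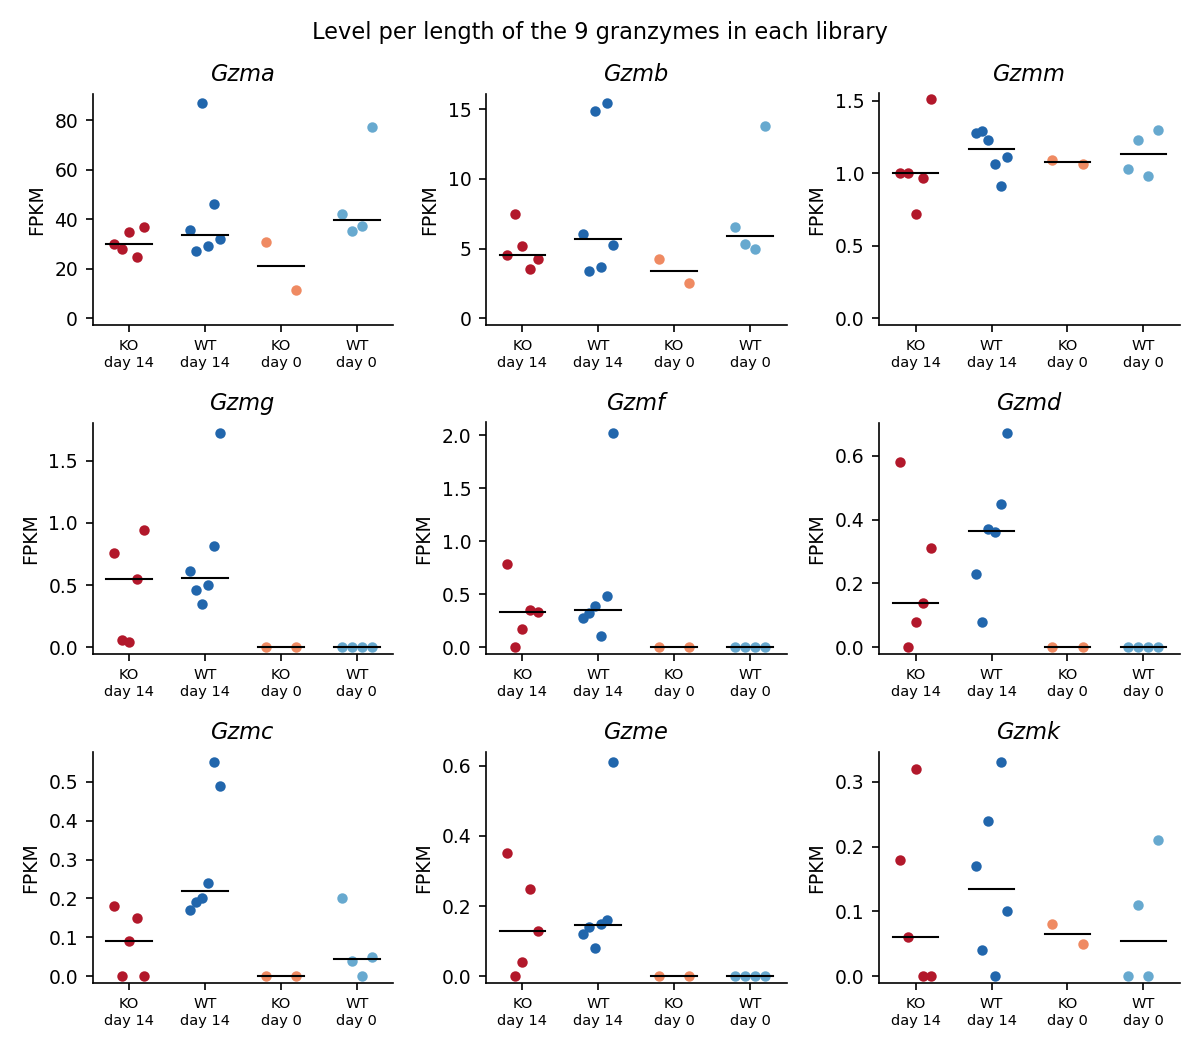
FPKM of each of the 9 granzymes (y axis, linear, its own scale per gene) in each library, by group on the x axis, with a line at the group median. Gzmg, Gzmf, Gzmd and Gzme are at 0 in all 6 day 0 libraries, while Gzma, Gzmb and Gzmm have values above 0 in all 17.

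The d to g genes had counts at day 14 and none at day 0, in both genotypes. Gzmg, which had the most counts of the 4 when the libraries are summed, had 17, 1, 1, 11 and 14 counts in KO lungs at day 14 (libraries 1 to 5) and 15, 10, 9, 13, 15 and 36 counts in WT lungs at day 14 (libraries 1 to 6), against 0 in all 6 day 0 libraries. Gzmf had 18, 0, 4, 7 and 5 counts in KO lungs and 7, 7, 10, 3, 9 and 43 counts in WT lungs at day 14. Both genes had 1 count or none in KO library 2 and were highest in WT library 6, and the genotypes overlapped. Gzmd had 14, 0, 2, 3 and 5 counts in KO lungs and 6, 2, 10, 10, 9 and 15 counts in WT lungs at day 14. Gzme had 8, 0, 1, 5 and 2 counts in KO lungs and 3, 3, 2, 4, 3 and 13 counts in WT lungs at day 14. Library 2 of the KO lungs thus held 1 count over the 4 genes together, and library 6 of the WT lungs held 107.

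Being at 0 in every day 0 library and above 0 in at least 10 of the 11 day 14 libraries was a rare pattern. It was met by 4 of the 34117 genes with a count anywhere, 0.0117%, and these 4 were Gzmd, Gzme, Gzmf and Gzmg. At 11 of 11 libraries Gzmg alone met it. At 9 or more there were 5 genes, with Phxr4 added, and at 8 or more there were 11 genes, the 4 granzymes among them. These limits were chosen after the values were seen, and the pattern describes these libraries only.

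Summed, Gzmd to Gzmg stood at 1.807, 0.04161, 0.2504, 0.9362 and 1.285 CPM in KO lungs at day 14, against 0.9278, 0.7294, 0.9052, 0.8324, 1.419 and 3.634 CPM in WT lungs at day 14. The KO values run below and into the WT range, and the mean was 0.864 ± 0.7288 CPM in KO lungs (SD, n = 5) and 1.408 ± 1.116 CPM in WT lungs (SD, n = 6). The difference of the means, KO minus WT, was -0.5439 CPM, smaller than either SD, and was -0.09867 CPM without WT library 6, the highest. With all 4 genes at 0 at day 0, only a bound can be given for the change with day, set with 3 counts over the group for the 0. The sum was at least 16.02-fold higher at day 14 than at day 0 in KO lungs and at least 56.65-fold higher in WT lungs. Each bound grows with the day 0 total, 55174441 counts in KO lungs and 125044760 counts in WT lungs. The genotypes are therefore not compared by these bounds. The KO bound rests on 2 day 0 libraries and was at least 7.894-fold and at least 8.123-fold with day 0 library 1 or 2 left out. Without WT library 6 the WT bound was at least 39.07-fold. A count of 0 allows at most 0.08508 to 0.1103 CPM in a day 0 library (3 counts, counting error only), and KO library 2, at 0.04161 CPM, lies below that, so it cannot be told from the day 0 libraries at this depth.

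**Figure D3:**
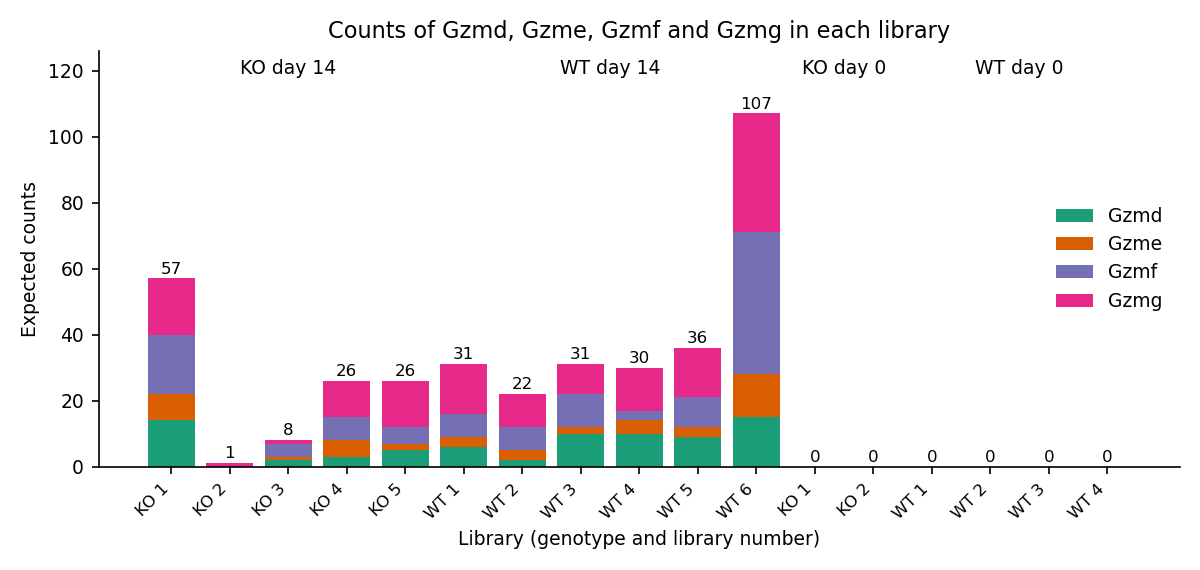
Expected counts of Gzmd, Gzme, Gzmf and Gzmg stacked for each of the 17 libraries, with the sum above each bar. KO library 2 reached 1 and WT library 6 reached 107 at day 14, and every day 0 library is at 0.

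Pooled over libraries, the makeup of the d to g sum at day 14 was as follows. Of 118 counts in KO lungs 37.29% were Gzmg, 28.81% Gzmf, 20.34% Gzmd and 13.56% Gzme. Of 257 counts in WT lungs 38.13% were Gzmg, 30.74% Gzmf, 20.23% Gzmd and 10.89% Gzme. Single libraries spread more widely: the Gzmg share was 29.82% in KO library 1 (95% Wilson interval 19.53 to 42.66%) and 53.85% in KO library 5 (35.46 to 71.24%), whose intervals overlap, while the Gzmf share was 40.19% in WT library 6 (31.39 to 49.66%) and 3 of 30 counts in WT library 4 (3.46 to 25.62%), whose intervals do not. The intervals cover counting error only. Similar sequence limits how far the 4 can be separated: 21.86% of the 50-base stretches of Gzmd transcripts also occur in another granzyme of the cluster, as do 20.65% for Gzme, 19.77% for Gzmg and 7.356% for Gzmf. Their counts nonetheless were whole numbers in all 17 libraries, and the sum of the 4 does not depend on the split among them. Some stretches of Gzmd, Gzme and Gzmg also occur in Gzmc and Gzmn, so the sum can still depend on the split from those genes.

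Gzmc, the neighbour between Gzmb and Gzmf, had counts at both days. It had 4, 0, 2, 3 and 0 counts in KO lungs and 4, 4, 5, 6, 10 and 10 counts in WT lungs at day 14. At day 0 it had 0 and 0 counts in KO lungs and 5, 1, 0 and 1 counts in WT lungs. The day 14 genotypes meet at 4 counts, and scaled to library size KO library 1, at 0.1268 CPM, lay above WT library 1, at 0.1197 CPM. Gzmk had between 0 and 8 counts in every library and no group stood apart.

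Gzma and Gzmb had counts in every library at both days and showed no such switch. Gzma stood at 20.51, 19.6, 23.66, 17.18 and 26.29 CPM in KO lungs at day 14, against 25.05, 18.96, 61.84, 20.17, 32.55 and 21.87 CPM in WT lungs at day 14. At day 0 it stood at 21.59 and 8.185 CPM in KO lungs and at 29.05, 24.55, 26.03 and 53.85 CPM in WT lungs. The genotypes overlapped at day 14, where WT library 3 was the highest, and did not overlap at day 0, where WT library 4 was the highest. Gzmb stood at 5.579, 9.487, 6.416, 4.429 and 5.387 CPM in KO lungs and at 7.662, 4.244, 18.95, 4.578, 19.7 and 6.487 CPM in WT lungs at day 14. At day 0 Gzmb stood at 5.326 and 3.237 CPM in KO lungs and at 8.145, 6.661, 6.194 and 17.19 CPM in WT lungs, again without overlap. Gzmb was high in WT libraries 3 and 5 at day 14, of which library 3 alone stood apart for Gzma. Gzmm was even throughout, at 0.7825 to 1.384 CPM in KO lungs and 1.025 to 1.426 CPM in WT lungs at day 14, and at 0.9673 to 0.9876 CPM in KO lungs and 0.9139 to 1.182 CPM in WT lungs at day 0.

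No granzyme passed the test across all genes in any comparison. The test was edgeR's quasi-likelihood test with Benjamini-Hochberg adjustment over 19557 genes, and a call needed an adjusted p under 0.05. Of the 9 members, 7 passed the filter on low counts; Gzme and Gzmk did not. Between KO and WT lungs at day 14, 0 of the 7 were called, beside 0.107% of all genes tested, and 1 (Gzmc) had an unadjusted p under 0.05, beside 8.95% of all genes. At day 0, 0 were called, beside 0.0256%, and 1 (Gzma) had an unadjusted p under 0.05, beside 6.74%. Between day 14 and day 0, 0 were called in KO lungs and 0 in WT lungs, beside 0.0% of all genes in both. In KO lungs 3 (Gzmd, Gzmf and Gzmg) had an unadjusted p under 0.05, beside 9.05% of all genes, and in WT lungs 4 (Gzmc, Gzmd, Gzmf and Gzmg) had one, beside 9.07% of all genes. For the change of the KO effect with day (the interaction), 0 were called, beside 0.0%, and 0 had an unadjusted p under 0.05, beside 4.55%. DESeq2 gave no adjusted p for Gzmc, Gzmd, Gzmf and Gzmg between the days, and none for Gzmc and Gzmd for the interaction. Since these contrasts chose the members, nothing is read from the counts.

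All 7 fitted changes between KO and WT lungs at day 14 were below 0, with a median log2 fold change of -0.67 beside 0.00108 over all genes tested. Gzmc had the largest, -1.64 with a standard error (SE) of 0.673 and an adjusted p of 0.48 by edgeR. Gzma had -0.49 (SE 0.348) and Gzmb -0.71 (SE 0.451), with adjusted p of 0.729 and 0.697 by edgeR; without WT library 3 the Gzma value was -0.14. Gzmd, Gzmf and Gzmg had -0.66, -0.81 and -0.67, with SEs of 0.644, 0.766 and 0.623. Gzmm had -0.23 (SE 0.17). No member had every KO library below every WT library, as 0.394% of all genes tested did. At day 0 Gzma had -1.16 (SE 0.523, adjusted p 0.729 by edgeR) and Gzmb -1.15 (SE 0.68, adjusted p 0.797 by edgeR), and these 2 members lay below WT in both KO libraries, as did 9.12% of all genes tested. The Gzma value at day 0 was -2.02 without KO library 1 and -0.63 without KO library 2. Gzmd to Gzmg were at 0 in both groups at day 0 and have no fold there. The interaction, KO effect at day 14 minus that at day 0, was 0.67 (SE 0.615) for Gzma and 0.44 (SE 0.8) for Gzmb on the log2 scale, with adjusted p of 0.988 and 0.992 by edgeR.

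**Figure D4:**
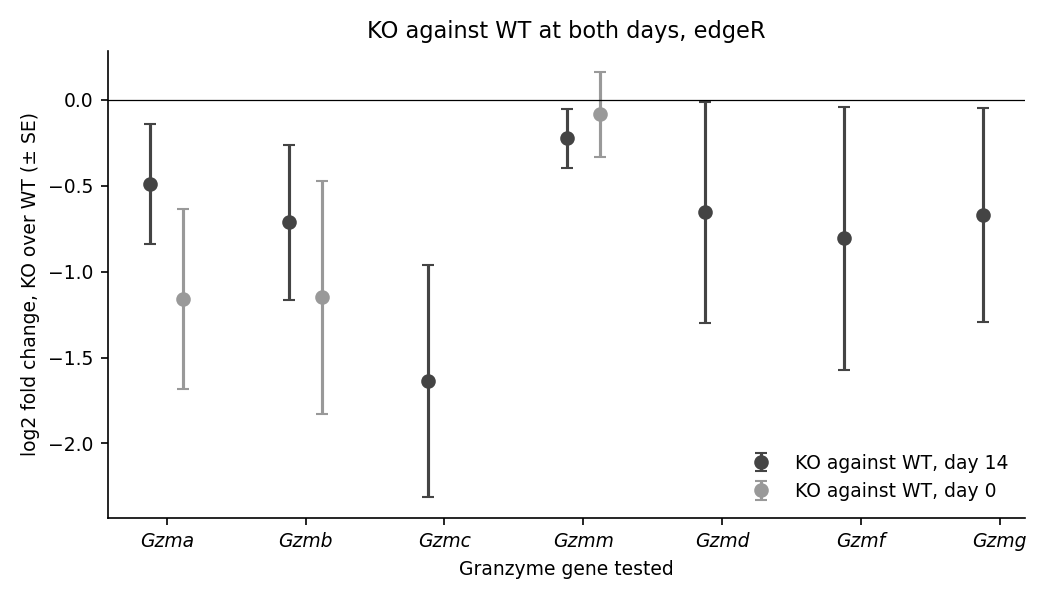
Log2 fold change, KO over WT, with its standard error from edgeR for the 7 granzymes tested at day 14 (dark) and for Gzma, Gzmb and Gzmm at day 0 (light). All points drawn lie below 0, from -0.08 for Gzmm at day 0 to -1.64 for Gzmc at day 14, and none passed the test. Gzmc at day 0 is left out because both KO libraries had 0 counts. Its fitted value there was -3.81 (SE 2.08), on 7 counts in WT lungs, and did not pass the test either.

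Between the days none of the classical members tested was called. In KO lungs Gzma had a log2 fold change, day 14 over day 0, of 0.52 (SE 0.499; 1.39 and -0.01 with day 0 library 1 or 2 left out) and Gzmb of 0.54 (SE 0.656), while in WT lungs these were -0.15 (SE 0.363) and 0.11 (SE 0.468). Gzmc had 1.87 (SE 0.724, adjusted p 0.44 by edgeR) in WT lungs, on 39 counts at day 14 and 7 at day 0. For Gzmm the log2 fold change was 0.07 (SE 0.24) in KO lungs and 0.21 (SE 0.179) in WT lungs. In KO lungs all day 14 libraries lay above all day 0 libraries for 1 member, Gzmg, since each of Gzmd, Gzme and Gzmf had 0 counts in KO library 2; this held for 5.6% of all genes tested. In WT lungs it held for 4 members, Gzmd to Gzmg, and for 1.2% of all genes tested, which do not include Gzme. By length, the day 14 level of Gzmg averaged 0.47 ± 0.4076 FPKM in KO lungs (SD, n = 5) and 0.7417 ± 0.504 FPKM in WT lungs (SD, n = 6), which is below the Gzmm averages of 1.04 ± 0.2878 FPKM in KO lungs and 1.147 ± 0.1484 FPKM in WT lungs at that day.

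The machinery that granzymes depend on did not pass the test either. Of 13 tested genes of perforin and granule release 0 were called in any comparison, with a median log2 fold change of 0.00 between KO and WT lungs at day 14. Srgn, serglycin, the proteoglycan that packs granule proteases, averaged 127.8 CPM in KO lungs and 120.0 CPM in WT lungs at day 14. Perforin itself (Prf1) stood at 9.434 to 13.8 CPM in KO lungs and 11.21 to 36.35 CPM in WT lungs at day 14, highest in WT library 3, the library with the most Gzma. At day 0 Prf1 stood at 6.511 to 13.37 CPM in KO lungs and 15.39 to 27.82 CPM in WT lungs. Both KO libraries thus lay below WT at that day, as they did for 9.12% of all genes tested. Of 7 genes of progranzyme processing and sorting 0 were called; cathepsin C (Ctsc), which trims the propeptide of granzymes, averaged 238.1 CPM in KO lungs and 235.2 CPM in WT lungs. Of 11 serpin genes 6 were tested and 0 called, among them Serpinb9, the inhibitor of granzyme B, at 146.5 CPM in KO lungs and 145.3 CPM in WT lungs at day 14. Of 14 genes of granzyme substrates and death, 11 cytotoxic transcription factors and 18 tested cytotoxic cytokine and receptor genes, 0 were called. The genes that flank the chromosome 14 cluster included no called gene: 7 of 14 were tested, and the median log2 fold change between day 14 and day 0 was 0.07 in KO lungs and -0.07 in WT lungs. Of 11 tested neighbours of the chromosome 13 and 10 members, 0 were called.

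Marker lists of the cells that could carry these genes were read beside the levels. All 16 tested NK markers had a fitted change below 0 between KO and WT lungs at both days, with medians of -0.59 at day 14 and -0.92 at day 0, and 0 were called. These markers are read in the same libraries and are not replicates. At day 14 they summed to 128.6 to 170.1 CPM in KO lungs (median 158.4) and 149.4 to 290.1 CPM in WT lungs (median 170.2), highest in WT library 3. At day 0 the sums were 136.5 to 155.8 CPM in the 2 KO libraries and 204.6 to 285.0 CPM in WT lungs. Itga2 was the largest part of these sums, averaging 81.35 CPM over the 17 libraries. It averaged 77.83 CPM in KO lungs and 78.03 CPM in WT lungs at day 14 (log2 fold change -0.004). At day 0 Itga2 averaged 74.75 CPM in KO lungs and 94.02 CPM in WT lungs. Ncr1, an activating receptor of NK cells, averaged 7.779 ± 1.921 CPM in KO lungs and 12.9 ± 6.11 CPM in WT lungs at day 14 (SD). At day 0 Ncr1 averaged 7.276 ± 3.976 CPM in KO lungs and 17.16 ± 6.855 CPM in WT lungs. Of 16 T cell markers 15 were below 0 at day 14 (median -0.09) and 16 at day 0 (median -0.49), with 0 called. Some other lymphoid and dendritic lists lay the same way at day 0, with 0 called. All 10 B cell markers (median -1.02), all 8 of plasmacytoid dendritic cells (median -0.77) and all 5 of CD8 T cells (median -0.56) were below 0. The gamma-delta T cell list did not, with 3 tested markers above 0 and 4 below (median -0.002). The part of the cells of these lists in the lower fitted Gzma and Gzmb of KO lungs was not tested. Of the 9 neutrophil markers 8 had a fitted change above 0 between day 14 and day 0 in KO lungs (median 1.61) and all 9 in WT lungs (median 1.86), with 0 called. Their summed level was 145.7 to 660.4 CPM in KO lungs and 186.0 to 581.3 CPM in WT lungs at day 14, against 154.3 to 168.0 CPM in KO lungs and 88.88 to 178.0 CPM in WT lungs at day 0. KO library 2, the day 14 library nearly without Gzmd to Gzmg, had the lowest neutrophil sum of that day. The part of neutrophils in the d to g levels was not tested.

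Across the day 14 libraries the level of Gzma lay close to a line with the NK markers, and that of Gzmd to Gzmg did not. Over the 11 day 14 libraries, all of which share the tissue and the counting, Pearson's r between Gzma and the NK marker sum was 0.98 (Spearman's rho 0.95), and 0.90 without WT libraries 3 and 5, the 2 farthest from the median. For Gzmb it was 0.80 (rho 0.62) and 0.33 without those 2, so it rests on them. Gzma also had an r of 0.69 with T cell markers (rho 0.77), which was 0.83 without the same 2 libraries, and of 0.58 with neutrophil markers (rho 0.68). For the d to g sum r was 0.15 with NK markers (rho 0.26), 0.17 with T cell markers (rho 0.01) and 0.67 with neutrophil markers (rho 0.64), the last falling to 0.35 without KO library 2 and WT library 6. Within the family, r was 0.81 for Gzma and Gzmb (rho 0.69), 0.14 for Gzma and the d to g sum (rho 0.28), and 0.66 for Gzmc and the d to g sum (rho 0.43). These are descriptions without a p.

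**Figure D5:**
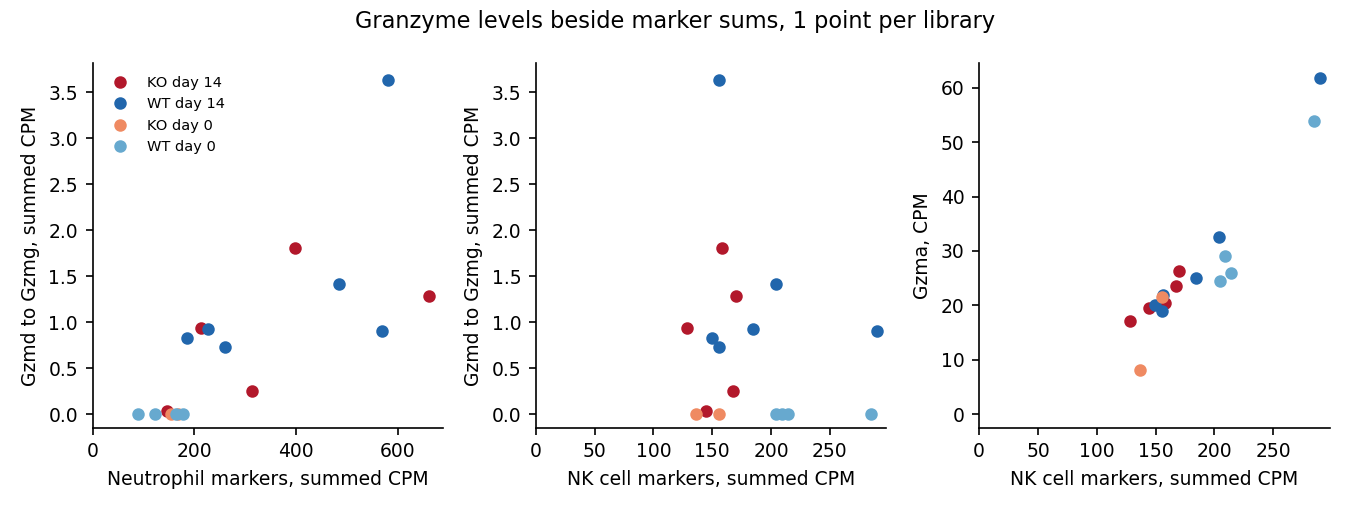
Each point is 1 library, with the summed CPM of the neutrophil markers or the NK cell markers on the x axes and the summed CPM of Gzmd to Gzmg, or the CPM of Gzma, on the y axes. The 2 libraries with the highest NK sums, 290.1 and 285.0 CPM, also have the highest Gzma, 61.84 and 53.85 CPM, while the d to g sum is 0 in the day 0 libraries over an NK sum of 136.5 to 285.0 CPM and is highest in a WT day 14 library with an NK sum of 156.1 CPM.

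The genes most like each granzyme were ranked by Pearson's r of log2 CPM over the 17 libraries among 14856 named genes that passed the filter. For Gzma they were Nkg7 (r 0.96), Ccl5 (0.94), Prf1 (0.94), Sla2 (0.94) and Ctsw (0.93), of which Nkg7 is a granule membrane protein of killer cells and Ctsw a cathepsin of the same cells. For Gzmb they were Ifi214 (0.92), Ifi206 (0.91), Klrk1 (0.90), Xrn2 (0.90) and Klrb1f (0.87), and Klrk1 is the activating receptor NKG2D. For the d to g sum they were Ifitm1 (0.93), Mrgpra2b (0.91), Il1f9 (0.90), Amer2 (0.90) and Cxcr2 (0.89), and Cxcr2 is a chemokine receptor of neutrophils. This last list spans 2 clusters of libraries, the day 0 ones at 0 and the day 14 ones. Over the 11 day 14 libraries alone the order was Ggt1 (0.97), Mdm1 (0.95), Abhd11 (0.89), Prpf40b (0.88) and Gng3 (0.88), and Cxcr2 had 0.81, or 0.50 without the 2 farthest libraries. By contrast the lists of Gzma over 17 and over 11 libraries shared Nkg7, Ccl5 and Ctsw. The like genes of Gzmm reached 0.78 (Taf13) and those of Gzmc 0.80 (Prl2c3, 0.75 over the 11 day 14 libraries).

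Mast cell, CD8 T cell and trophoblast lists were read as well. Mast cell markers summed to 332.4 to 369.1 CPM in KO lungs and 324.5 to 381.1 CPM in WT lungs at day 14, against 339.0 to 408.0 CPM in KO lungs and 381.0 to 401.4 CPM in WT lungs at day 0. Kit and Hdc made up most of this sum, averaging 257.3 and 101.9 CPM over the 17 libraries. Cma1 and Ms4a2 averaged 2.156 and 0.8799 CPM, so the sum is not read as a level of mast cells. CD8 T cell markers summed to 23.14 to 47.69 CPM in KO lungs and 26.18 to 54.95 CPM in WT lungs at day 14, against 26.6 to 27.64 CPM in KO lungs and 38.96 to 59.73 CPM in WT lungs at day 0. Ccr7 was the largest part of that sum, averaging 22.58 CPM over the 17 libraries, against 6.968 CPM for Cd8a and 4.403 CPM for Cd8b1. The trophoblast list was read because Gzmd to Gzmg are known from the pregnant uterus; Prl3d1, Prl3b1, Tpbpa and Hand1 were at 0 in every library. The list summed to 0.08322 to 2.379 CPM in KO lungs and 1.304 to 12.16 CPM in WT lungs at day 14, against 0.1116 to 0.3175 CPM in KO lungs and 0.1217 to 0.2506 CPM in WT lungs at day 0. Its 1 tested gene, Prl2c3, stood at 0.0 to 2.347 CPM in KO lungs and 1.193 to 11.61 CPM in WT lungs at day 14, against 0.0 CPM in both KO libraries and 0.0 to 0.05656 CPM in WT lungs at day 0.

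Among the companion lists 2 genes passed the test, Dynap and Rhox5, both of the mammary epithelium and tumour list and both lower in KO than in WT lungs at day 14. They were 2 of 14 tested genes of that list, beside 0.107% of all genes tested. Its other tested genes, among them Krt8, Krt18, Krt19 and Erbb2, were not called. The list was chosen with earlier results of these data known, so nothing about mammary or tumour markers is read from the calls. Dynap averaged 0.01458 CPM in KO lungs and 0.4178 CPM in WT lungs (log2 fold change -4.48, SE 0.705, adjusted p 0.0207 by edgeR), and Rhox5 averaged 0.142 CPM in KO lungs and 1.377 CPM in WT lungs (log2 fold change -3.20, SE 0.593, adjusted p 0.0454 by edgeR). Dynap, like Gzmd to Gzmg, was at 0 in all 6 day 0 libraries. The levels of both genes and of Prl2c3 were highest in WT library 6, the library with the most Gzmd to Gzmg, at 0.849, 3.464 and 11.61 CPM. In KO library 5 all 3 were at 0 while Gzmd to Gzmg stood at 1.285 CPM, and in KO library 3 Prl2c3 was at 2.347 CPM while Gzmd to Gzmg stood at 0.2504 CPM. The part of the cells that carry these 3 genes in the d to g levels was not tested. Neither call held without KO library 1, 4 or 5 or without WT library 3 of day 14, each left out alone, and the call of Rhox5 held only without KO library 2 or WT library 4 of day 14.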

How the data were processed

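Per the labels' protocols, total RNA of whole lung was extracted with Qiagen RNeasy and made into libraries with Illumina TruSeq v4. Build mm10, RSEM 1.3.0, STAR 2.5.3 and limma 3.38.3 are named in the submitters' processing notes; the annotation release is not given in the sources used here. Each library's deposited file gives an expected count per gene, and the authors deposited a joint table of FPKM, used here for levels between genes. The count unit was read from values that are not all whole and from differing sums.

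The 9 members and the companion lists were chosen with earlier results of these data known. Expected counts were rounded to whole numbers, filtered with filterByExpr by group (19557 genes kept) and scaled with TMM. Library totals were 20607811 to 35743830. One edgeR 4.0.16 model of 4 group means over 17 libraries was fitted in R 4.3.3 (glmQLFit, robust; common biological coefficient of variation 0.1524) and tested with glmQLFTest, with Benjamini-Hochberg adjustment over all genes tested. The comparisons were KO against WT at each day, day 14 against day 0 in each genotype, and the difference of the KO effects. SE is the log2 fold change over the square root of F. CPM use TMM-scaled totals; bounds against 0 use 3 counts over a group and unscaled totals. The pipeline was tested on simulated data. DESeq2 1.42.0, limma-voom (limma 3.58.1), limma on log2 FPKM and other settings were run as alternatives. No library was a copy of another (chi-square per gene 12.4 or more between libraries of a group).

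Coordinates are of GENCODE M21 on GRCm38, which holds 54079 of the 54146 deposited gene IDs. Promoters are RefSeq sequences of GRCm38.p6, found for all 9 members. Motif words were searched on both strands. Named genes were all 9 members; up to 4 genes of highest mean CPM of each list and any list member called between genotypes; and the 5 genes most like each granzyme. Phxr4, Cd82, Gm10804, Krt14, Pgr and the trophoblast genes at 0 fall outside this rule and were named after their values were seen.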

Additional observations from a re-analysis of the deposited data

Results flagged for a closer look

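In 6 of the 25 gene and group combinations checked, 1 library lay far from the others of its group by Dixon's criterion, which chance alone meets in about 1 in 20. At day 14, WT library 6 was far above the other WT lungs for Gzme (0.4415 CPM, the next 0.1182 CPM), Gzmf (1.46 CPM, the next 0.3546 CPM), Gzmg (1.223 CPM, the next 0.5911 CPM) and the sum of Gzmd to Gzmg (3.634 CPM, the next 1.419 CPM). These 4 values share their genes and count as 1 observation. Gzma stood apart in WT library 3 at day 14 (61.84 CPM, the next 32.55 CPM) and in WT library 4 at day 0 (53.85 CPM, the next 29.05 CPM). These 2 libraries also had the highest NK marker sums of all 17, at 290.1 and 285.0 CPM, and the highest Ncr1, at 24.79 and 27.14 CPM.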

How the results depend on the processing

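In the 26 other settings run (25 for the difference of the KO effects), 0 of the granzymes each could test were called; Gzmc, Gzmd, Gzmf and Gzmg had a value in 21 to 23 of them. The lowest adjusted p of a member over them was 0.0794 (Gzmg, day 14 against day 0 in WT lungs, edgeR without WT day 14 library 5), 0.281 for the same comparison in KO lungs, 0.406 between genotypes at day 14, 0.571 at day 0 and 0.732 for the difference of the KO effects. DESeq2 gave no adjusted p (NA) for 4 members in each comparison of days. It gave none for Gzmc and Gzmd in the difference of the KO effects. Its counts of 0 in these comparisons leave those members out. Its unadjusted p for Gzmd, Gzmf and Gzmg between the days in WT lungs were 1.27e-05, 3.14e-06 and 1.69e-07. These genes were chosen with their levels by day in view, so nothing is read from those p. The count of companion list genes called was 2, against 1 by limma-voom, 1 by each of the 3 limma fits on log2 FPKM and 4 by DESeq2 (Dynap, Krt14, Pgr and Rhox5), and 0 to 2 with 1 library left out. Where that left 1 day 0 KO library, it was assumed to vary like the other groups. The d to g difference, KO minus WT at day 14, was -0.7795 to -0.09867 CPM with 1 library left out and -0.5449 CPM without TMM factors, a setting chosen after seeing the data. The fitted change of Gzmf between genotypes at day 14 was above 0 in 1 of 22 settings (0.09), that of Gzmb between the days in WT lungs was below 0 in 8 of 26, and that of Gzmm in KO lungs was below 0 in 4 of 26; the difference of the KO effects was below 0 in 1 of 25 for Gzmb and in 2 of 21 for Gzmc. Gzma between the days was 0.18 in WT lungs without WT day 0 library 4, and -0.01 in KO lungs without KO day 0 library 2. No paired analysis was possible because the labels share no replicate numbers between groups. By Spearman's rho the 5 genes most like the d to g sum over the 17 libraries had 0.81 to 0.90 there. Over the 11 day 14 libraries alone the same 5 genes had 0.55 to 0.79. Depth limits the d to g genes, with at most 43 counts per gene and library.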
